A study of Homo sapiens with 6 samples.

Results

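The ERBB receptors and their close partners were followed in T47D cells that carried a mimic of the microRNA miR-489. The group was defined by name as 9 genes: the receptors EGFR, ERBB2, ERBB3 and ERBB4, the ligands BTC and NRG1, the adaptor GRB7 and the receptor inhibitors ERRFI1 and LRIG1. All 25 probes that the platform annotation maps to these genes were taken, of 47322 probes on the array and of 20046 genes with a named probe. Probes with a detection p below 0.01 on 3 or more of the 6 arrays, counted over both groups, were kept for testing, and 11 of the 25 probes, from 6 of the 9 genes, passed. With the mimic ERBB3, LRIG1 and ERRFI1 were each at 39.0% to 53.4% of the scramble level on every kept probe, EGFR was 1.70-fold higher on 1 of 2 kept probes, and no change of ERBB2 or GRB7 was called. Both ends of that range are dim ERBB3 probes, which in the authors' processed values were at 0.659 and 0.871 of scramble, and the second of them was not detected on mimic array 1.

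T47D is a breast cancer line of luminal type that expresses the oestrogen receptor. The study compared 3 samples transfected with the mimic and 3 transfected with a scramble siRNA as the control, all collected 72 h after transfection. Every sample was hybridised to its own 1-colour Illumina BeadChip. Separate cultures are not stated in the labels, so p-values reflect only how far these samples spread, and that spread may be technical. In such bulk RNA, fewer cells of a type and less RNA per cell cannot be told apart. The scramble cells were also transfected, and no untransfected cells are among the samples.

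ERBB receptors are tyrosine kinases that pair with one another when a ligand binds and then activate the RAS-ERK and PI3K-AKT pathways. ERBB2 has no known ligand of its own and ERBB3 has a weak kinase, and their pairing is a strong activator of PI3K because the tail of ERBB3 binds its regulatory subunit at several sites. LRIG1 and ERRFI1 restrain the receptors, LRIG1 at the membrane by promoting their breakdown and ERRFI1 in the cytoplasm by blocking the kinase domain. In breast cancer ERBB2 is best known for its amplification together with the neighbouring GRB7, which T47D does not carry.

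MicroRNAs pair with their targets mainly through the seed, bases 2 to 8. The labels name neither the arm nor the sequence of the mimic, so the sequence shown is the one mature miR-489 listed by RefSeq (GRCh38.p14, chr7:93483947-93483968, minus strand). It is printed because it is the molecule whose name the treatment carries, with the seed in capitals.
hsa-miR-489-3p: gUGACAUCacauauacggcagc
Sites for this seed in the transcripts of the 9 genes were not analysed here.

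Of 17104 kept probes over the whole array, 33.9% were called at a limma adjusted p below 0.05, 17.6% higher and 16.3% lower with the mimic, and 48.8% had groups that did not overlap. Among the 11 kept probes of the 9 genes, 7 were called, 1 higher and 6 lower, and the same 7 had groups that did not overlap. These 7 probes belong to 4 genes, and probes of 1 gene are not independent. The kept probes of the 9 genes had a median log2 fold change of -0.91, against 0.02 over all kept probes. In the -0.91, ERBB3 counts 3 times and EGFR, GRB7 and LRIG1 2 times each. With 1 probe per gene, 4 of 6 measured genes were called, against 35.7% of all measured genes. The 9 genes were chosen with earlier results of these data known, so these shares and medians are a description only. Scaling the arrays by their medians in place of quantile normalization moved the median of all kept probes to 0.10 and split the calls over all probes into 3676 higher and 2210 lower, against 3002 and 2796. Under that scaling too, 6 of these probes were called lower and 1 higher.

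Arrays had mean intensities of 526 to 619, with 16452 to 17346 probes detected. All 9 luminal epithelial markers examined, among them KRT8, ESR1 and GATA3, were detected on all 6 arrays, and 2 of them rose and 3 fell. Their summed normalized intensity ran from 62520 to 64108 in scramble and from 53081 to 55332 with the mimic. Of the other cell types' markers, the basal keratins KRT5 and KRT14, all 4 endothelial genes and the leukocyte genes PTPRC and CD3E were detected on 0 arrays. COL1A1 and VIM were detected on all 6 arrays, COL1A2 and PDGFRB on 0, and the sum of the 5 fibroblast genes was 452 to 526 in scramble and 426 to 489 with the mimic. CD68 was detected on all 6 and fell. The summed normalized intensity of the 3 leukocyte genes, nearly all of it CD68, ran from 568 to 639 in scramble and from 413 to 416 with the mimic, and the part of these shifts in the results below was not tested.

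**Figure D1:**
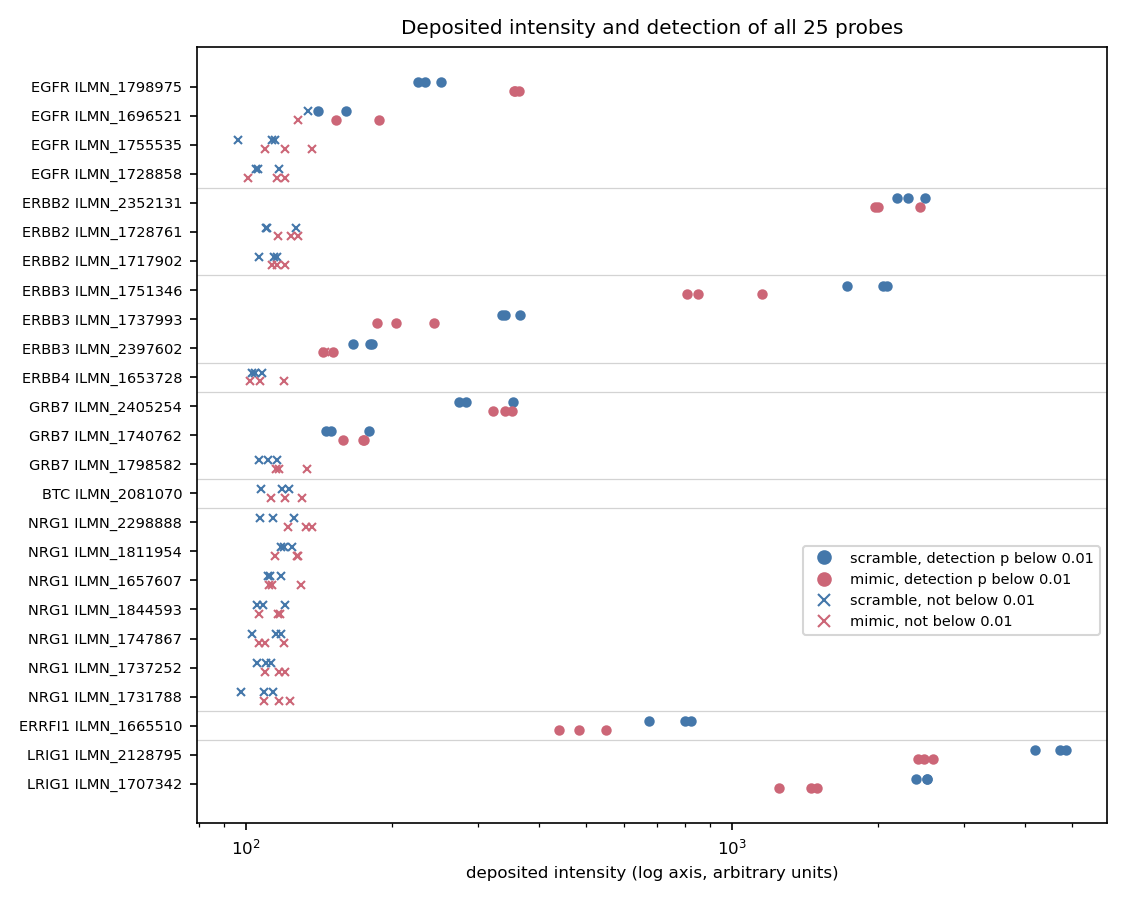
Deposited intensity (horizontal log axis, arbitrary units) of all 25 probes of the 9 genes on the 3 scramble (blue) and 3 mimic (red) arrays. Circles mark arrays with detection p below 0.01 and crosses the others, and all probes of ERBB4, BTC and NRG1 carry crosses only, between 96.4 and 136.6 together with the other undetected probes.

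ERBB3, the receptor for neuregulins, was lower with the mimic on all 3 of its probes. The brightest, ILMN_1751346, which the annotation ties to the transcript NM_001982, had log2 normalized intensities of 10.68, 11.08 and 11.04 on the scramble arrays and 9.23, 10.06 and 9.54 on the mimic arrays. The mimic values all lay under the scramble values, with mimic array 2 nearest to them. The fall was 2.50-fold, or -1.32 ± 0.22 on the log2 scale (SE of the difference, n = 3 arrays each, 95% interval -1.84 to -0.80, limma adjusted p = 0.00357), and 438 of the 17104 kept probes had a more negative value.

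The other ERBB3 probes are both tied to NM_001005915, a transcript of a short secreted form of the receptor. ILMN_1737993 read 8.11, 8.04 and 7.99 in scramble and 6.89, 6.43 and 6.74 with the mimic, a log2 fold change of -1.36 ± 0.15 (limma adjusted p = 0.000633). ILMN_2397602 read 6.39, 6.18 and 6.45 against 5.09, 5.68 and 5.52, a change of -0.91 ± 0.18 (limma adjusted p = 0.00662). It was detected on 3 of 3 scramble and 2 of 3 mimic arrays, so the size of its fall rests partly on signal at background. On the order of the arrays the probes differed, since mimic array 2 was the highest mimic array on ILMN_1751346 and the lowest on ILMN_1737993.

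All 3 falls of ERBB3 were also called in the authors' processed values, with smaller sizes. There the log2 fold change was -1.15 ± 0.18 for ILMN_1751346, -0.60 ± 0.06 for ILMN_1737993 and -0.20 ± 0.06 for ILMN_2397602. The ratio between the sizes was largest for the dimmest probe. Without background correction the same probes changed by -1.21, -0.84 and -0.34.

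EGFR, the receptor for EGF and TGF-alpha, was higher with the mimic on its brightest probe. ILMN_1798975, tied to NM_005228, read 7.31, 7.17 and 7.04 in scramble and 7.81, 8.0 and 8.01 with the mimic on the log2 scale. All 3 mimic arrays lay above all 3 scramble arrays. The rise was 1.70-fold, or 0.76 ± 0.13 on the log2 scale (SE, n = 3 arrays each, 95% interval 0.46 to 1.07, limma adjusted p = 0.00406). Its deposited intensities were low, from 225.7 to 252.0 in scramble and from 355.5 to 365.4 with the mimic. In the authors' values the rise was 1.29-fold and called (log2 0.36 ± 0.06, limma adjusted p = 0.00413).

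The remaining EGFR probes are tied to transcripts of truncated forms of the receptor. ILMN_1696521, tied to NM_201282, was detected on 2 of 3 arrays in each group and read 6.0, 5.25 and 5.43 in scramble and 6.14, 4.92 and 5.80 with the mimic. The groups overlapped, the difference was 0.05 ± 0.32 (95% interval -0.69 to 0.79) and its sign turned when single arrays were left out. This interval does not exclude a rise of the size seen on ILMN_1798975. ILMN_1755535 and ILMN_1728858 were detected on 0 of 6 arrays.

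ERBB2, the receptor with no known ligand, had no called change. ILMN_2352131 read 11.07, 11.13 and 11.33 in scramble and 10.64, 11.21 and 10.88 with the mimic. Mimic array 2 lay among the scramble arrays and the others below them. The log2 fold change was -0.27 ± 0.17 (95% interval -0.66 to 0.13, limma adjusted p = 0.263), so a fall to 0.633 of the scramble level or a rise to 1.09 times it is within the interval. Its other probes, ILMN_1728761 and ILMN_1717902, were detected on 0 of 6 arrays.

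ERBB4, which binds neuregulins and betacellulin, was not detected. Its probe ILMN_1653728 had deposited intensities from 101.9 to 119.8 and a lowest detection p of 0.696. A single probe at background shows only that ERBB4 signal was not detectable on these arrays.

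The changes of the receptors were set against each other within arrays, by the difference of the log2 values of their brightest probes. The change of ERBB2 was above that of ERBB3 by 1.05 on the log2 scale, that of EGFR above ERBB2 by 1.03 and that of EGFR above ERBB3 by 2.08. For ERBB2 and ERBB3 the within-array difference was 0.40, 0.05 and 0.29 in scramble and 1.42, 1.15 and 1.34 with the mimic. In each of the 3 pairs the within-array differences did not overlap between groups, and the exact two-sided permutation test over arrays gave p = 0.1, which is the smallest that 3 against 3 arrays allow (adjusted p = 0.1 over the 3 pairs). The comparison was added after values were seen, cannot reach 0.05 with this design, and the pairs share their receptors. For EGFR and ERBB3 the separation followed from the probes themselves, whose groups already lay apart in opposite directions. In the authors' values the difference between EGFR and ERBB2 was 0.61.

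**Figure D2:**
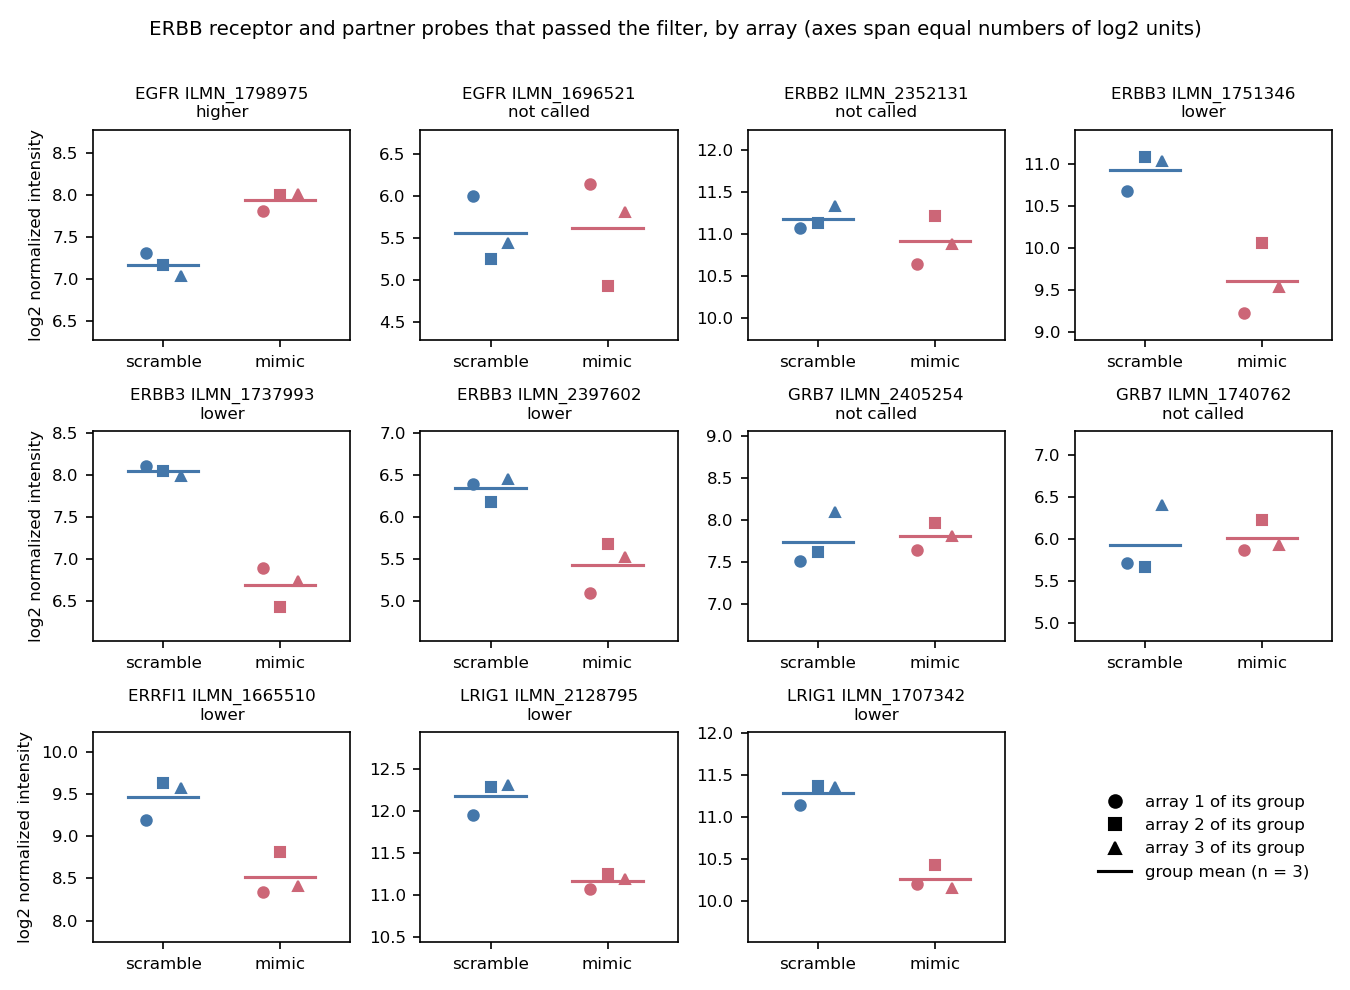
Log2 normalized intensity (vertical axis, spanning the same number of log2 units in each panel) on each array for the 11 kept probes, with symbols for array 1, 2 and 3 of each group and a line at the group mean. The groups are apart on the 3 ERBB3, 2 LRIG1 and 1 ERRFI1 probes and on EGFR ILMN_1798975, and they overlap on ERBB2, both GRB7 probes and EGFR ILMN_1696521.

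The ligands gave no signal to compare. BTC, betacellulin, which binds EGFR and ERBB4, has 1 probe, and NRG1, the neuregulin that binds ERBB3 and ERBB4, has 7. All 8 were detected on 0 of 6 arrays, with intensities from 97.8 to 136.6. The lowest detection p among them was 0.0221, for NRG1 probe ILMN_2298888 on mimic array 2. Over all probes without a filter, that probe had a log2 fold change of 0.28 (limma adjusted p = 0.452). Whether either ligand changed at levels below detection cannot be told from these arrays.

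LRIG1, a membrane protein that recruits the ubiquitin ligase CBL to ERBB receptors, fell to about the same degree on both of its probes. ILMN_2128795 read 11.95, 12.29 and 12.31 in scramble and 11.07, 11.25 and 11.19 with the mimic, a 2.03-fold fall (log2 -1.02 ± 0.14, SE, n = 3 arrays each, limma adjusted p = 0.00169). ILMN_1707342 read 11.14, 11.36 and 11.35 against 10.20, 10.42 and 10.15, a 2.04-fold fall (-1.03 ± 0.14, limma adjusted p = 0.00133). The groups were apart on both. These bright probes kept their size in the authors' values, at -0.99 ± 0.11 and -0.94 ± 0.09.

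Its paralogs were not called. LRIG2 was at -0.06 ± 0.12 on the log2 fold change scale (95% interval -0.33 to 0.20) and LRIG3, detected on 2 of 3 scramble arrays, at 0.30 ± 0.20 (-0.16 to 0.76). Both were named after their values were seen. The interval of each lies above the whole interval of LRIG1, -1.35 to -0.69, and the difference between the paralogs was not tested.

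ERRFI1, also called MIG6 or RALT, encodes a cytoplasmic inhibitor that is itself induced by EGFR signalling. Its single probe, ILMN_1665510, read 9.20, 9.64 and 9.58 in scramble and 8.34, 8.81 and 8.41 with the mimic. All mimic arrays lay below all scramble arrays, with mimic array 2 nearest. The fall was 1.94-fold, with a log2 fold change of -0.95 ± 0.18 (95% interval -1.37 to -0.54, limma adjusted p = 0.00560), and -0.69 ± 0.12 in the authors' values.

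GRB7, an SH2 adaptor that binds activated ERBB2 and ERBB3, had no called change. ILMN_2405254 read 7.52, 7.62 and 8.10 in scramble and 7.65, 7.97 and 7.81 with the mimic, a log2 fold change of 0.06 ± 0.18 (95% interval -0.35 to 0.48). ILMN_1740762 read 5.71, 5.66 and 6.40 against 5.87, 6.22 and 5.92, a difference of 0.08 ± 0.22 (-0.42 to 0.58). The groups overlapped on both, and both signs turned when single arrays were left out. The remaining probe, ILMN_1798582, was detected on 0 of 6 arrays.

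The paralogs of GRB7 moved in opposite directions on their brightest probes. GRB10, which binds the insulin receptor and other kinases, read 10.09, 9.84 and 10.12 in scramble and 7.73, 8.06 and 7.87 with the mimic on its brightest probe, a 4.39-fold fall (log2 fold change -2.13 ± 0.14, limma adjusted p = 0.000139). A further GRB10 probe fell by 2.08 on the log2 scale (SE 0.17), and the dimmest kept one had -0.27 ± 0.15 and was not called. GRB14, an inhibitor of insulin receptor signalling, read 7.48, 7.13 and 7.48 against 8.89, 9.65 and 8.95, a 3.49-fold rise (1.80 ± 0.22, limma adjusted p = 0.000938). The other kept GRB14 probe, near background, had -0.28 ± 0.35 and was not called, so the rise rests on 1 probe. In the authors' values GRB10 changed by -1.51 and GRB14 by 1.09.

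**Figure D3:**
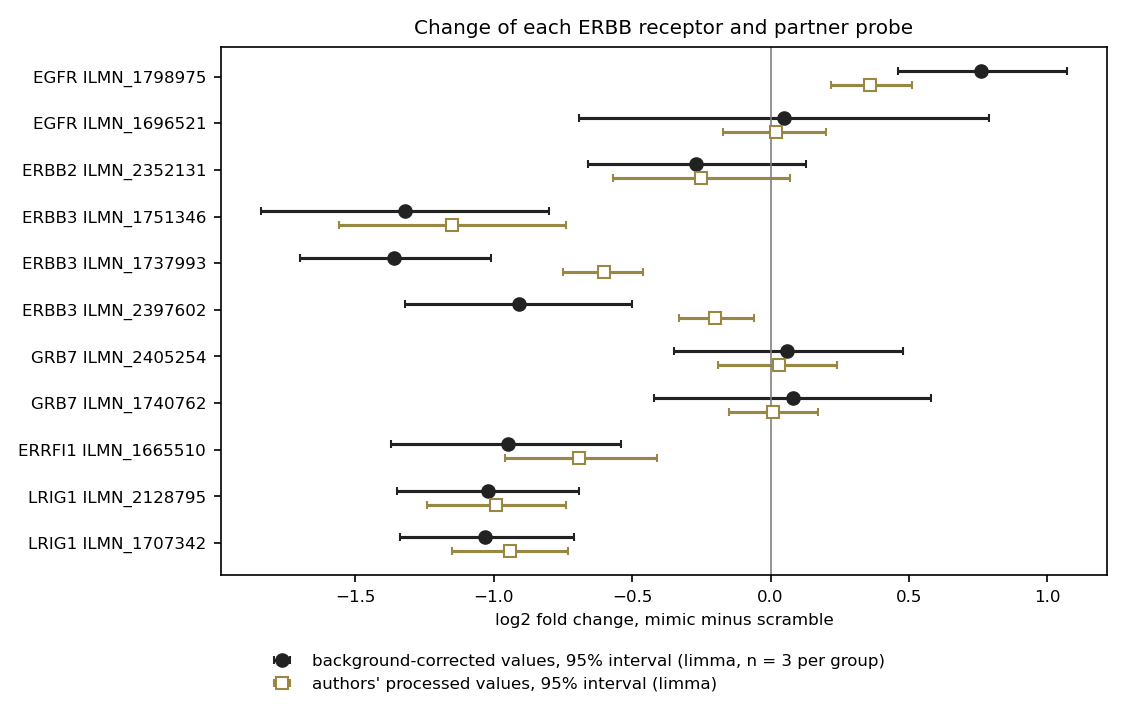
Log2 fold change, mimic minus scramble (horizontal axis), of the 11 kept probes with 95% intervals from limma, n = 3 arrays per group, in background-corrected values (filled circles) and in the authors' processed values (open squares). The intervals of the ERBB3, LRIG1 and ERRFI1 probes lie below 0 and that of EGFR ILMN_1798975 above it in both, and the ERBB3 probes ILMN_1737993 (-1.36 against -0.60) and ILMN_2397602 (-0.91 against -0.20) differ most between them.

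Promoters are shown for LRIG1 and ERRFI1, which fell, and for EGFR, which rose, because they let the starts of genes that moved in opposite directions be read side by side. The set of promoter windows used here (GRCh38.p14) covered 6 of the 9 genes. It held none for ERBB3, GRB7 and NRG1, although RefSeq lists a start for each of these genes. Each line gives the 250 bases before the gene's outermost start, 5′ to 3′ on the gene's strand, with matches to the GC box (GGGCGG, or CCGCCC on the other strand) in capitals. The windows are chr3:66501122-66501371 (minus) for LRIG1, chr1:8026310-8026559 (minus) for ERRFI1 and chr7:55018767-55019016 (plus) for EGFR.
LRIG1: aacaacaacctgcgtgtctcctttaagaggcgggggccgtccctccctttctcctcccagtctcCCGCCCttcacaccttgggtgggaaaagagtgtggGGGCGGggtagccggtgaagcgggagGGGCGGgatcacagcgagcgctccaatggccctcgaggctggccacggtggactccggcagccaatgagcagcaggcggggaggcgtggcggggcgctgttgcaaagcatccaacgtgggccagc
ERRFI1: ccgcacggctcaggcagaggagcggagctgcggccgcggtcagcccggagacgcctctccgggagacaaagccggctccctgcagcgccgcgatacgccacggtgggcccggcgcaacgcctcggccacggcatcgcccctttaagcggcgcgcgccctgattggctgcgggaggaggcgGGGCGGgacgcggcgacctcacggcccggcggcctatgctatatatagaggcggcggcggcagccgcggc
EGFR: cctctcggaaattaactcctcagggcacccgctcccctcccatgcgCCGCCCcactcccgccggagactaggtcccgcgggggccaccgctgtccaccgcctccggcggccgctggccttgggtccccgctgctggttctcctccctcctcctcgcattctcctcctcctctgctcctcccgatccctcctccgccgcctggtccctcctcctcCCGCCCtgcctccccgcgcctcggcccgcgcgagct
The GC box, a motif bound by SP1, occurred 3 times at LRIG1, 1 time at ERRFI1 and 2 times at EGFR, and 42.5% of all 34943 listed promoter windows of this length hold it. The CCAAT motif (or ATTGG) occurred 2 times at LRIG1, 1 time at ERRFI1 and 0 times at EGFR, against 32.0% of windows with at least 1. TATAAA (or TTTATA) was in none of the 3 windows and in 10.8% of all. Only these exact letters were searched, so the tatatata near the end of the ERRFI1 window was not counted. The GC content was 66.8%, 75.2% and 73.6% in the same order, against a median of 58.0%. The listed window of ERBB2, whose change was not called, held 1 CCAAT and 0 GC boxes, and ERBB3, which fell, had no window to search, so the matches are a description only.

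The other genes of the pathway were read from 9 lists of 85 genes, with each gene represented by its kept probe of highest mean over the 6 arrays. Expression of 62 was measured: 12 rose (19.4%), 9 fell (14.5%) and 41 were not called. In all 33.9% were called, against 35.7% of all 10503 measured genes (18.4% higher and 17.3% lower), so the share called was close to that of all genes. Their median log2 fold change was 0.04, against 0.03 over all genes. The counts given for each list below are small and stand against these same shares over all genes. The other genes of the lists lay under the filter or had no listed probe and were not analysed here.

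None of the 4 other ERBB ligands measured was called on its brightest probe. AREG and EPGN had no listed probe, and EREG, NRG2 and NRG3 lay under the filter. TGFA, an EGFR ligand, read 7.24, 7.39 and 7.34 in scramble and 6.79, 7.28 and 6.77 with the mimic, a difference of -0.38 ± 0.17 (limma adjusted p = 0.114), which was called without mimic array 2 (adjusted p = 0.0203). Its other kept probe was called lower (-0.52 ± 0.15, limma adjusted p = 0.0317). HBEGF, which binds EGFR and ERBB4, had a log2 fold change of -0.51 ± 0.17 (limma adjusted p = 0.0544), and of -0.63 with a limma adjusted p = 0.0401 without scramble array 2. It was also called under cyclic loess (limma adjusted p = 0.0459) and with detection required on all 6 arrays (0.0438). In the authors' values TGFA was at -0.15 and HBEGF at -0.13, neither called. Among 5 genes of ligand shedding, 1 fell and 4 were not called. RHBDF2, which encodes iRhom2, the carrier of the protease ADAM17, fell on all 3 of its kept probes, by 0.98 on the log2 scale (SE 0.21, limma adjusted p = 0.00948) on the brightest, with no overlap between groups. ADAM17 itself was not called.

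Among 13 adaptors and docking proteins, 5 rose, 2 fell and 6 were not called. PTPN11, the phosphatase SHP2 that binds GAB adaptors, read 11.52, 11.58 and 11.47 in scramble and 8.75, 8.74 and 8.65 with the mimic, the most negative log2 fold change among the 62 genes (-2.81). The docking protein GAB2 read 9.56, 9.67 and 9.76 against 10.51, 10.91 and 10.65, a 2.04-fold rise. In both genes the groups did not overlap. In the PI3K-AKT arm 1 of 5 rose, 2 fell and 2 were not called. PIK3R1, the subunit that docks on ERBB3, read 8.05, 8.05 and 8.37 against 6.55, 6.83 and 6.57 (log2 -1.50, and -0.68 in the authors' values). PDPK1, the kinase that activates AKT, changed by -0.60 ± 0.12 on its brightest probe (limma adjusted p = 0.00818). Its other kept probe, detected on 2 scramble arrays and 1 mimic array, had -0.44 ± 0.21 and was not called. PIK3CB, a catalytic subunit, changed by 0.45 ± 0.15 (limma adjusted p = 0.0490), and that call was lost without any one of scramble arrays 1, 2 and 3 or mimic arrays 1 and 3 (adjusted p from 0.0557 to 0.151). It was also lost under cyclic loess (0.0580), with no filter (0.0900) and with a detection limit of 0.05 (0.0596), all limma adjusted p.

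The RAS-ERK arm held 5 measured genes and none was called. MAP2K2, a kinase upstream of ERK, was at 0.17 ± 0.18 on the log2 scale (95% interval -0.24 to 0.57) and MAPK3, which encodes ERK1, at -0.07 ± 0.14 (-0.40 to 0.25), with its sign turned under median scaling. Of 12 genes of receptor turnover and chaperoning, 5 rose, 1 fell and 6 were not called. The gene that fell, STUB1, was at -0.52 ± 0.17 on its brightest probe (limma adjusted p = 0.0474), with 1 of its 2 kept probes called lower. CBLB, at 0.22, and CBLC, at -0.31, were not called, and these genes were named after their values were seen. CBL, the ubiquitin ligase of EGFR, read 8.93, 9.08 and 9.0 in scramble and 9.91, 10.0 and 9.86 with the mimic, a 1.89-fold rise (log2 0.92 ± 0.12, limma adjusted p = 0.00122), and its other probe rose by 1.05 ± 0.13. RNF41, also called NRDP1, the ubiquitin ligase of ERBB3, read 7.24, 7.77 and 7.32 against 8.28, 8.32 and 8.29, a 1.80-fold rise (0.85 ± 0.16, limma adjusted p = 0.00564, and 0.45 in the authors' values). HSP90AB1, a chaperone that stabilises ERBB2, changed by 0.75 ± 0.12. NEDD4, another ubiquitin ligase, rose by 0.64 ± 0.17 on its brightest probe and had -0.27 ± 0.13, not called, on another. Its call did not hold when mimic array 3 or one of scramble arrays 2 and 3 was omitted (adjusted p from 0.0606 to 0.0673).

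**Figure D4:**
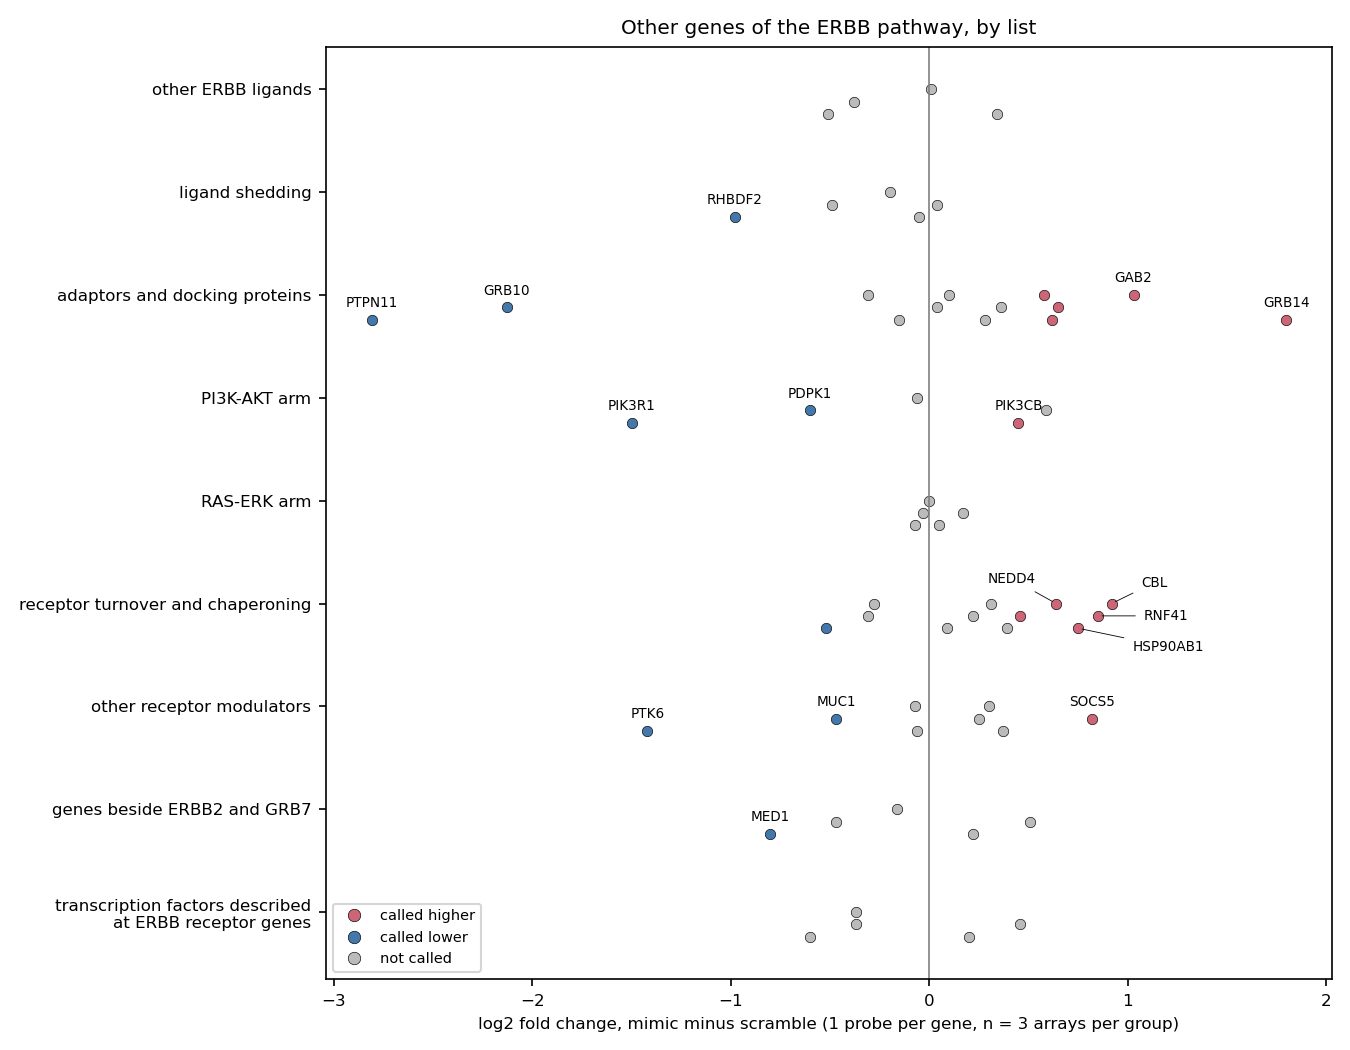
Log2 fold change, mimic minus scramble (horizontal axis), of the 62 measured genes of 9 ERBB pathway lists (rows), 1 probe per gene and n = 3 arrays per group. Red points were called higher, blue lower and grey not called, with PTPN11 at -2.81 and GRB14 at 1.80 as the ends of the range.

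Of 8 other receptor modulators, 1 rose, 2 fell and 5 were not called. PTK6, the kinase BRK that binds ERBB receptors, read 7.96, 7.98 and 7.87 in scramble and 6.69, 6.14 and 6.72 with the mimic, a 2.68-fold fall (log2 -1.42 ± 0.18, limma adjusted p = 0.000971, and -0.59 in the authors' values). MUC1, a mucin whose tail associates with ERBB receptors, fell on all 3 of its probes, by 0.47 to 0.75 on the log2 scale. The call on its brightest probe did not hold when any one of scramble arrays 2 and 3 and mimic arrays 1 and 2 was omitted (adjusted p from 0.0555 to 0.0886). SOCS5, which promotes breakdown of EGFR, rose by 0.82 ± 0.12 on its brightest probe and had -0.19 ± 0.19, not called, on another. In the authors' values the rise of SOCS5 was 0.34 and that of NEDD4 0.32.

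On the RefSeq annotation of GRCh38.p14 MIEN1 is the only protein-coding gene between ERBB2 and GRB7. Expression around this pair was measured for 5 genes, of which 1 fell and 4 were not called. The one that fell was MED1, a Mediator subunit and coactivator of the oestrogen receptor, with -0.80 ± 0.12 and -0.62 ± 0.13 on its probes (limma adjusted p = 0.00234 and 0.00904). MIEN1, PGAP3 and STARD3, near ERBB2, were at 0.22, 0.51 and -0.47 on the log2 scale and were not called. None of 5 measured transcription factors described at ERBB receptor genes was called on its brightest probe. For TFAP2A, named after its values were seen, 1 of 4 kept probes was called lower. GATA3 was at -0.60 ± 0.24 (limma adjusted p = 0.0867) and FOXO3, which acts at the ERBB3 gene, at -0.37 ± 0.15 (limma adjusted p = 0.0995). Without mimic array 2 both were called (GATA3 -0.81, adjusted p = 0.0270, and FOXO3 -0.49, adjusted p = 0.0390), as was GATA3 without scramble array 1 (-0.80, adjusted p = 0.0327).

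Genes of similar pattern were sought among 10497 other measured genes by the root mean square difference of the 6 log2 values after centring each gene on its mean. Nearest to ERBB3 were FGFR3, another receptor tyrosine kinase (0.10 log2 units), SLC27A1 (0.11) and DCAF11 (0.11), with log2 fold changes of -1.20, -1.21 and -1.24, and of -0.78, -0.30 and -0.55 in the authors' values. Nearest to EGFR were AKAP13 (0.03), ZNF837 (0.03) and MIOS (0.04), with 0.79, 0.75 and 0.76, and AKAP13 was at 0.46 and ZNF837 at 0.26 in the authors' values. Nearest to ERBB2 were ZNF526 (0.03), NFIC (0.05) and ITGA3 (0.06), and none of these was called. With 6 arrays in 2 groups, this likeness mostly repeats the size of the group difference.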

How the data were processed

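RNA of 3 scramble and 3 mimic samples was measured on 1-colour Illumina arrays with biotin-labelled cRNA, per the labels' protocols. One deposited table holds an intensity and a detection p-value for every probe on each array, per the file headers. The software behind it was not given in the sources used here. Processed intensity values were likewise deposited by the authors, and the submitters' processing notes name lumi 3.2.2. All 6 processed columns have a median of 200.783 and a minimum of 170.293, and their transform and any centring stay unknown. The fits took log2 of these values as if they were linear intensities. With the median this close to the minimum, ratios between dim processed values can only be small. On the log2 scale each column correlated with its own array at 0.978 to 0.988 after centring each probe.

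From the deposited intensities, background was removed with nec (normexp from detection p-values, offset 16), arrays were quantile-normalized, and log2 was taken (limma 3.58.1, R 4.3.3). The two-sided test used limma's lmFit and eBayes, with Benjamini-Hochberg adjustment over all 17104 kept probes. Rose and fell are used for an adjusted p below 0.05. Symbols came from the platform annotation of the array, updated through Entrez identifiers to RefSeq. All probes of the 9 genes were named. From each pathway list up to 4 called genes with the largest change were named, or the 2 with the smallest p, and for each measured receptor the 3 genes of nearest pattern. The members and lists were chosen with earlier results of these data known. The comparison of receptor pairs was added after values were seen. Alternatives were other background corrections, normalizations, filters and variance models, the replicate block, the authors' values and leaving out each array. The fit was tested on simulated data. The number of arrays limits the precision.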

Additional observations from a re-analysis of the deposited data

How the results depend on the processing

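Each of the 7 called probes of the 9 genes kept its direction and its call in all 118 fits under 17 alternatives in which it was tested. The count called lower was 5 when detection on all 6 arrays was required, because ILMN_2397602 of ERBB3 was then not tested, and 6 under the other alternatives. The 4 probes not called were never called in 67 fits, and 11 of these turned the sign. Leaving out 1 array gave -0.21 to 0.40 for EGFR ILMN_1696521, -0.05 to 0.24 for GRB7 ILMN_2405254 and -0.05 to 0.32 for GRB7 ILMN_1740762, and array weights gave -0.07 and -0.09 for the GRB7 probes in that order. MAPK3 was at 0.07 under median scaling.

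Leaving out 1 array lowered the probes called higher from 3002 to between 1937 and 2849, and moved the pathway genes called higher from 12 to between 7 and 13, with the lowest of both without mimic array 3. Array weights raised the pathway genes called lower from 9 to 14. With the replicate number as a block, 3441 probes were called higher and 3239 lower, 13 pathway genes higher and 12 lower, and the 7 calls on the 9 genes remained. GATA3 (adjusted p = 0.0287) and HBEGF (0.0373) were called under the block, and with array weights TGFA (0.0204), FOXO3 (0.0286) and GATA3 (0.00952), all limma adjusted. The numbers do not pair the samples throughout: deviations of same-numbered arrays correlated at 0.356, 0.450 and -0.107, and mimic array 3 correlated best with scramble array 1 (0.346). The receptor pair differences kept their sign under each alternative that gave a value, with EGFR minus ERBB2 smallest at 0.61. Dim probes had the least certain sizes.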
